A study of Mus musculus with 2 samples.

Results

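Alternative last exons are the different 3′ terminal exons in which the transcripts of 1 gene can end. A transcript that is cleaved and polyadenylated at an upstream last exon never includes the exons beyond it, so the choice can replace the end of the protein as well as the untranslated region. Textbook cases form when an upstream exon with its own poly(A) site is skipped, or when an internal exon runs on into the following intron and ends there. In neurons such ends are known to change membrane anchors, kinase tails and the cell compartment of a protein.

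Here 66 protein-coding genes with 134 last exons were described in mouse hippocampus. They were chosen by their read numbers. A member gene had annotated transcripts of at least 2 exons ending in 2 or more last exons that do not overlap, and each of these last exons held at least 10 reads in each library. Of 22028 protein-coding genes in the annotation, 12258 had 2 or more such annotated ends, and 3446 of those had at least 20 reads of annotated spliced transcripts in each library. The 66 genes are 1.92% of these 3446. Of the 66, 64 genes had 2 accepted last exons, and Lamp2 and Rexo2 had 3. Because the choice used the reads of each end, the sizes of the shares are a description of these genes and carry no test. The difference of a share between the libraries was tested over all genes with enough reads, members or not. Among members the choice also limits this difference, because it asked for 10 reads on each end in each library.

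The data are long reads of total RNA, in which a read can carry a whole chain of exons. The tissue, labelled as a layer of hippocampus, came from female B6CASTF1/J mice (F1 hybrids between C57BL/6J and CAST/EiJ) aged 14 days, with no treatment named and no second group. Each of the 2 libraries, which are biological replicates, pooled 3 animals and used 2 µg of RNA. The characteristics give the libraries different animals, while a description line repeats the animal numbers of replicate 1 for both. Replicate 1 held 1168366 reads and replicate 2 held 888704, of which 18582 and 16484 fell on annotated spliced transcripts of the 66 genes. A pool shows neither the spread between animals nor the cell type a read came from. Of 20 cell type markers, 17 were read in both libraries, among them those of neurons, astrocytes and oligodendrocytes. The 3 choroid plexus markers Kcnj13, Clic6 and Folr1 had 91 reads together in replicate 1 and 0 in replicate 2, where a count of 0 allows up to 3 reads (3.38 CPM, the library's reads scaled to 1000000). Astrocyte markers summed to 2390 and 3866 CPM and the oligodendrocyte markers Mbp and Cnp to 4041 and 5429 CPM in replicates 1 and 2. Among granule and pyramidal cell markers, Prox1 had 8 and 34 reads and Pcp4 369 and 202.

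The ends of 5 genes are shown because they carry the main patterns: a near-even split (Cdc42), 3 alternative tails (Lamp2), a nearly fixed choice (Prkcb), a regulator of RNA with alternative ends of its own (Qk) and the largest difference between the libraries (Pnkd). Each line gives the last 10 codons and the stop codon of the protein-coding transcript with the most reads on that end, 5′ to 3′ on the coding strand, with the stop codon in capitals. They were read from the GENCODE M21 transcripts on build mm10.
Cdc42-201 upstream end: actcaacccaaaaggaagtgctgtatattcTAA
Cdc42-202 downstream end: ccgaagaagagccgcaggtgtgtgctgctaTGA
Lamp2-202 most upstream end: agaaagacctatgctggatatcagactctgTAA
Lamp2-201 middle end: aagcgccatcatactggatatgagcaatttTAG
Lamp2-203 most downstream end: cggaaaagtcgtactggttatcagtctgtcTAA
Prkcb-202 upstream end: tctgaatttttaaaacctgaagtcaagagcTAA
Prkcb-201 downstream end: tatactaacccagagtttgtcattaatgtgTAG
Qk-206 upstream end: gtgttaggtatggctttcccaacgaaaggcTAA
Qk-204 downstream end: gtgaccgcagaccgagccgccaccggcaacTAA
Pnkd-204 upstream end: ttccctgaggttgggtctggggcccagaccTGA
Pnkd-201 downstream end: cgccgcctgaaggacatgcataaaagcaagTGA

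The Cdc42 stretches lie at chr4:137322530-137322562 and chr4:137321103-137321135 on the minus strand, each within a last exon. Those of Lamp2 lie at chrX:38421712-38421744, chrX:38405432-38405464 and chrX:38402139-38402171, also on the minus strand and within the last exons. The Prkcb stretches lie at chr7:122627782-122627814 and chr7:122633865-122633897, and those of Pnkd at chr1:74287252-74287284 and chr1:74351899-74351931, all on the plus strand. Both Qk stretches cross 1 exon junction, so they span chr17:10214169-10216166 and chr17:10209615-10213374 on the minus strand.

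Cdc42, a small GTPase that organises actin, encodes 29 residues of its own in each of its 2 last exons, and 20 of them (69.0%) were identical between the ends. The last codons differ, and they specify the lipid anchor: the upstream end is the brain form known to be palmitoylated, and the downstream end is the widely expressed prenylated form. The upstream last exon took 184 of 403 reads in replicate 1 and 140 of 351 in replicate 2. That is a share of 45.7% (95% exact Clopper-Pearson interval 40.7% to 50.7%) and 39.9% (34.7% to 45.2%). The 2 intervals overlap, and the downstream end led in both libraries. Intervals here cover counting error only.

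Lamp2, a lysosomal membrane protein, ended in 3 places, and all 3 encode the membrane span and the short cytosolic tail with its lysosomal sorting signal. The first 2 ends have 46 residues of their own each, of which 21 are identical. The most upstream end had 33.0% and 49.0% of the reads, the middle end 44.3% and 35.3%, and the most downstream end 22.7% and 15.7% in replicates 1 and 2. The leading end therefore differed between the libraries, with 32 and 50 reads on the upstream end and 43 and 36 on the middle end. By sequence the upstream end is the B tail, the middle end the A tail known for chaperone-mediated autophagy, and the downstream end the C tail.

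Prkcb, the beta protein kinase C, was nearly fixed on its upstream end, which is the beta II form. This end held 427 of 450 reads (94.9%) and 544 of 563 reads (96.6%), and the downstream beta I end held 23 and 19 reads. The own sequence of the forms codes for the last 52 of 673 and the last 50 of 671 residues.

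**Figure D1:**
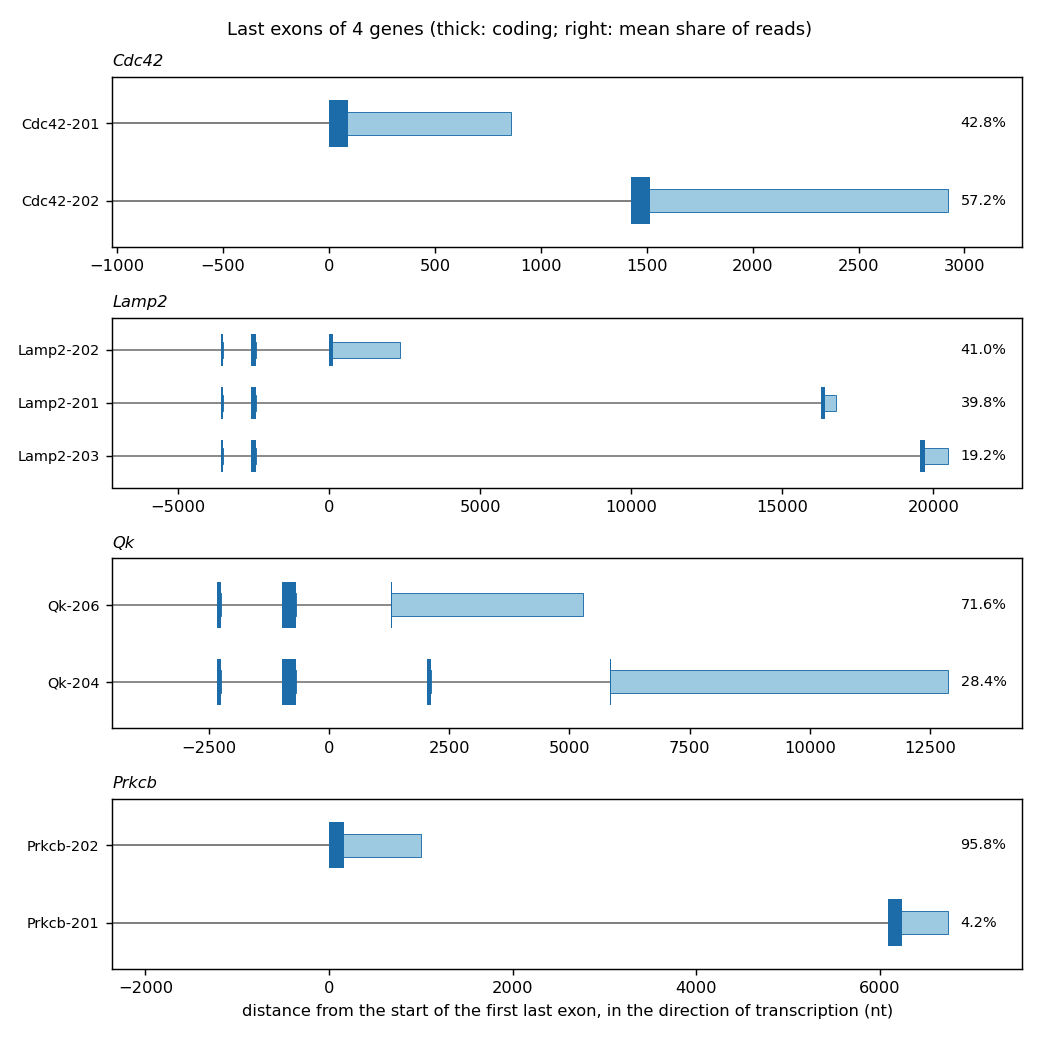
Exon maps of Cdc42, Lamp2, Qk and Prkcb, drawn to scale from the start of the most upstream last exon (horizontal axis, nt, in the direction of transcription), with 1 row for the leading transcript of each end. Thick bars are coding, thin bars are untranslated, lines are introns, and the percentage at the right is the mean share of reads over the 2 libraries, from 4.2% for the downstream end of Prkcb to 95.8% for its upstream end.

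Across the 66 genes, the leading last exon held a median of 65.1% of the reads, as the mean of both libraries, with a range from 41.0% (Lamp2) to 99.7% (Apoe). It held under 60% in 25 genes and over 90% in 7. Taking the 2 leading last exons of each gene, the upstream one led in 30 genes and the downstream one in 36, and the median share of the downstream one was 50.6%. Neither position was therefore the usual choice in this set. The 2 leading last exons lay a median of 6644.5 nt apart, from 102 nt in Ppil2 to 114660 nt in Acbd6.

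**Figure D2:**
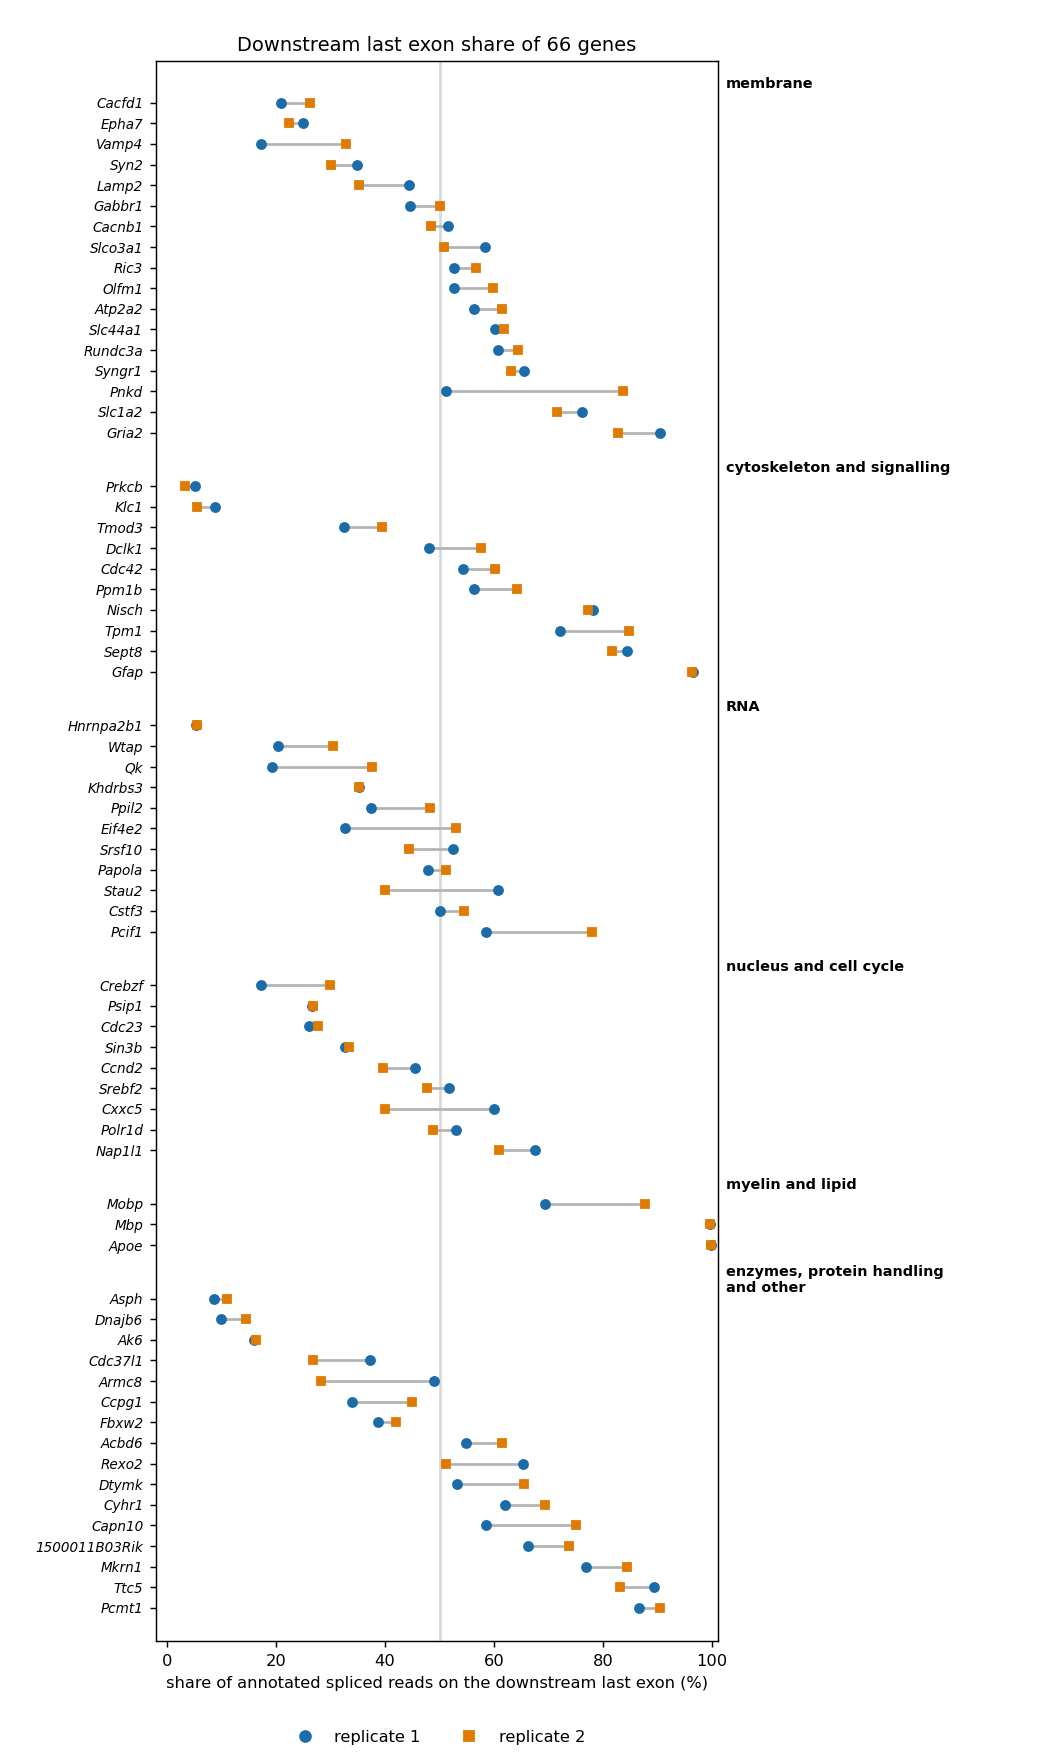
Share of a gene's annotated spliced reads (horizontal axis, %) on the downstream of its 2 leading last exons, with 1 row per gene, grouped by role. Circles are replicate 1, squares replicate 2, and the grey line joins the libraries; Pnkd has the longest line, from 51.2% to 83.6%, and Mbp and Apoe sit close to the right edge.

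Among the 17 genes of membranes, vesicles, receptors and transport, Olfm1 had the most reads. Olfm1 encodes the secreted pancortins, and its upstream end at chr2:28214101-28214425 makes a protein of 153 residues without the olfactomedin domain of the form of 485 residues. The upstream end took 638 of 1346 reads (47.4%) and 418 of 1040 reads (40.2%), and the downstream end took the rest. Of the upstream reads, 369 and 274 came from protein-coding transcripts, against all 708 and 622 downstream reads, so the upstream share is no measure of the short protein. Epha7, an ephrin receptor kinase, ended mainly upstream, in a form of 610 residues that stops before the kinase domain, with shares of 70.6% and 76.0%. The end of the full receptor of 998 residues had 25.0% and 22.3%. In both libraries the end of the kinase-lacking form thus had the larger share of annotated spliced reads. Spliced reads outside the annotation, described further on, fell upstream in 13 of 33 and 31 of 48. Mean transcript length was 2862 nt upstream and 6658 nt downstream, and the part of length in these shares was not tested.

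Atp2a2, the calcium pump of the endoplasmic reticulum, had 59 reads in each library on the upstream end of the 1044-residue pump (43.7% and 37.8%). Its downstream end had 56.3% and 61.5%, but 75 and 91 of its 76 and 96 reads came from a transcript annotated as nonsense-mediated decay. The transcript of the 998-residue pump had 1 and 5 reads. The larger share of the downstream end is therefore no measure of the shorter pump.

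Vamp4, a SNARE protein of the trans-Golgi network, has 9 residues of its own on each end, with 1 identical. Its upstream end took 86 of 104 reads (82.7%) and 49 of 73 (67.1%). Slc1a2, the glial glutamate transporter GLT-1, had 32 and 68 reads on the downstream end of the 572-residue form (76.2% and 71.6%), and 10 and 27 on the upstream end of the 561-residue form. It was among the genes just inside the read minimum.

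Syn2, which encodes a synapsin that tethers synaptic vesicles, had 65.1% and 70.0% of its reads on the upstream end, in a transcript that GENCODE annotates as a retained intron. Gria2, an AMPA receptor subunit, and Ric3, a chaperone of nicotinic receptors, likewise had an upstream end led by a retained intron transcript, with shares of 6.49% and 14.1% for Gria2 and 47.4% and 43.2% for Ric3. No protein-coding transcript with a stop codon was read on these ends, so their shares are no measure of a protein. Gabbr1, a subunit of the GABA-B receptor, split its reads at 55.4% upstream and 44.6% downstream in replicate 1 and at 50% each in replicate 2. Its 2 ends also began at different first exons and shared no coding base in frame. Of its unannotated spliced reads 2 of 22 and 2 of 19 were upstream, and with all such models added the mean upstream share was 44.0%. Slco3a1, an organic anion transporter, had 58.3% and 50.8% on its downstream end. Rundc3a, a RUN domain protein of neurons, had 169 of 278 reads (60.8%) and 176 of 273 (64.5%) downstream. The remaining membrane genes kept the same order of their ends in both libraries apart from Cacnb1, a calcium channel subunit, with 15 of 31 and 17 of 33 reads upstream. Slc44a1, a choline transporter, had 60.2% and 61.9% downstream, and Syngr1, a synaptic vesicle protein, 65.5% and 63.2%. Cacfd1 had 79.0% and 73.8% upstream.

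Among the 10 cytoskeleton and signalling genes, Prkcb, Klc1 and Gfap had over 90% on 1 end. Klc1, a kinesin light chain, had 91.3% and 94.5% on its upstream end, and Gfap, the astrocyte intermediate filament, had 96.5% and 96.3% on its downstream end of the alpha form. The upstream Gfap end of the delta form had 13 and 15 reads. Sept8, a septin, had 84.3% and 81.6% downstream. Tpm1, a tropomyosin that lines actin filaments, had 93 of 129 reads (72.1%) and 89 of 105 (84.8%) on its downstream end. Dclk1, a doublecortin-like kinase of developing neurons, was read at 12 of 25 and 15 of 26 on the downstream end that carries the kinase, with 10 and 11 reads on the upstream end. Spliced reads outside the annotation, described further on, fell almost all on the downstream end, 60 of 62 and 70 of 71. With all unannotated spliced models added the mean downstream share was 84.3% in place of 52.8%. The others were Ppm1b with 56.4% and 64.2% downstream, Nisch with 78.2% and 77.3% downstream, and Tmod3, a cap of actin filaments, with 67.5% and 57.6% upstream.

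Several of the 11 RNA genes act on RNA ends or splicing themselves. Qk encodes quaking, an RNA-binding protein of glia. Its downstream end makes the nuclear form of 341 residues, and the leading protein-coding transcript of its upstream end makes a form of 319 residues. The upstream reads include other transcripts, so their share is no measure of the 319-residue form. The upstream end took 88 of 109 reads (80.7%, 72.1% to 87.7%) and 83 of 133 (62.4%, 53.6% to 70.7%). Khdrbs3, a splicing regulator of the STAR family, had 64.5% and 64.4% on its upstream, protein-coding end, while its downstream end was led by a nonsense-mediated decay transcript.

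Papola, the canonical poly(A) polymerase, split between an upstream end of a 293-residue form (46.6% and 44.2%) and the downstream end of the 739-residue enzyme (47.9% and 51.2%). Cstf3, a subunit of the cleavage stimulation factor, had 24 and 10 reads on an upstream end annotated as a retained intron and 24 and 12 on the downstream end of the full protein. In both of these polyadenylation genes neither end had a majority beyond the counting error in either library. Stau2, a double-stranded RNA-binding protein of dendritic granules, had 39.2% and 60% on its upstream end, so its leading end differed between the libraries. Hnrnpa2b1, a nuclear ribonucleoprotein, had 94.6% and 94.5% on the upstream end, and Ppil2 had 56.6% and 51.8%. The leading protein-coding transcripts on the ends of Hnrnpa2b1 and Ppil2 use the same stop codon, so past it they differ only in untranslated sequence. In Hnrnpa2b1 protein-coding transcripts alone reached 10 reads in each library on only 1 end. Wtap, a part of the complex that methylates adenosine in RNA, had 79.6% and 69.6% upstream. In Srsf10, a splicing factor, and Eif4e2, a cap-binding protein, the leading end differed between the libraries: the downstream end had 52.5% and 44.4% in Srsf10 and 32.7% and 52.9% in Eif4e2. Pcif1, which methylates the cap of RNA, had 58.5% and 78.0% downstream, and its upstream end was led by a retained intron transcript.

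Of the 9 nuclear and cell cycle genes, Psip1 had nearly equal shares in the libraries. This chromatin tether ended upstream in 149 of 203 reads (73.4%) and 139 of 190 (73.2%). That form has 327 residues and lacks the integrase-binding domain of the 528-residue form. Ccnd2, a D-type cyclin, had 54.5% and 60.3% on its upstream end. That end makes a form of 156 residues, the last 20 of its own, against 289 in the full cyclin. Crebzf had both ends led by nonsense-mediated decay transcripts, and Srebf2, a regulator of sterol synthesis, had 14 and 11 reads upstream against 15 and 10 downstream. With the unannotated spliced models added, its mean upstream share fell from 50.3% to 29.8%, so the downstream end led. Cxxc5 had 12 and 15 against 18 and 10, and its mean upstream share fell from 50% to 16.2% when those models were added. The upstream last exon of Cxxc5 overlaps another gene on the same strand, AC141471.2. Sin3b, a corepressor subunit, had 67.3% and 66.7% upstream, and Cdc23, a subunit of the anaphase-promoting complex, 74.0% and 72.2% (chromosome 18). Nap1l1, a histone chaperone, had 67.5% and 60.9% downstream. Polr1d had 47.1% and 51.2% upstream, with few reads, so neither end led clearly.

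The 3 myelin and lipid genes had most reads downstream. Apoe, the main apolipoprotein of the brain, had 5620 of 5632 and 4460 of 4473 reads on its downstream end, and Mbp, the myelin basic protein, 2999 of 3013 and 3343 of 3356 (chromosome 18). Both entered through an end of 11 to 14 reads. Mobp, another myelin protein, is described with the differences between the libraries.

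In the 16 genes of enzymes, protein handling and other roles, Dnajb6, a co-chaperone, had 89.7% and 85.1% on the upstream end of the short form of 242 residues, and Asph had 91.4% and 89.0% upstream. Mkrn1, a ubiquitin ligase, had 77.0% and 84.4% downstream. Pcmt1, an enzyme that repairs damaged aspartyl residues, had 86.5% and 90.5% downstream with the same stop codon on either end. Acbd6 and Dtymk, a thymidylate kinase, stood just inside the read minimum with 10 reads on their upstream ends in replicate 2. Ak6 is uncertain, because its upstream last exon, with 84.1% and 83.7%, overlaps Taf9 on the same strand, as are both ends of Ccpg1, which overlap Gm44503. Rexo2, a nuclease of short RNAs, had 25.9% and 33.3% on its most upstream end, 8.82% and 15.5% on the middle one and 65.3% and 51.2% on the most downstream one. The upstream pair of Rexo2 ends came mainly from retained intron transcripts, and the upstream Fbxw2 end, with 61.3% and 58.1%, from a transcript without a coding part. Ttc5 had 89.3% and 83.1% downstream, Cyhr1 62.0% and 69.4%, 1500011B03Rik 66.2% and 73.8%, and Capn10, a calpain protease, 58.5% and 75%. Upstream ends had 50.9% and 71.8% in Armc8 and 47.1% and 39.0% in Cdc37l1, a co-chaperone, and 62.3% and 53.6% in Ccpg1.

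At the edge of the rule, 8 genes had a last exon with exactly 10 reads in a library as their smallest accepted value: Acbd6, Crebzf, Cstf3, Cxxc5, Dclk1, Dtymk, Slc1a2 and Srebf2. Just outside it, 5 genes had 9 reads: Ccnc, Gart, Rnf13, Tdrkh and Wdr70. For example, Gart, a purine synthesis enzyme, had 11 and 9 reads on the deciding end out of 38 and 34.

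The positions of the ends were counted as a description of these genes, without a comparison to other genes. Of the 68 last exons with another accepted end further downstream, 42 overlapped an internal exon of another annotated transcript of the gene (composite ends) and 26 did not (skipped ends). Of the 66 most downstream ends, 9 overlapped an internal exon. The leading transcript of the upstream ends had a median last exon of 852 nt, against 1330.5 nt for the downstream ends. In 60 genes the 2 ends had the same leading first exon. The other 6, Mbp, Cyhr1, 1500011B03Rik, Gabbr1, Wtap and Dclk1, differed at both ends of the transcript.

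The poly(A) signal is the short motif upstream of the cleavage site, AATAAA in its main form and ATTAAA in its most common variant. The last 50 bases of each annotated transcript were searched on the transcribed strand, taking AATAAA first. Of 65 leading transcripts with an upstream end, 43 held AATAAA, 7 held only ATTAAA and 15 held neither. Of 66 with a downstream end, 47 held AATAAA, 11 held only ATTAAA and 8 held neither. Over all 21726 annotated spliced transcripts of protein-coding genes with a read, 55.2% held AATAAA, 13.1% only ATTAAA and 31.7% neither. Both ends of Cdc42 carry the variant, shown here as 30 bases with the motif in capitals, at chr4:137321772-137321801 and chr4:137319707-137319736 on the minus strand. A match is a description of the letters and no measure of cleavage.
Cdc42-201 upstream signal: ttacattttgaaATTAAAaatatacaattg
Cdc42-202 downstream signal: cttttcagatgtATTAAAcaaacaaaaccc

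Protein ends were compared from the annotated coding parts, and no protein was measured. In 47 genes the leading protein-coding transcripts of the 2 ends stopped at different stop codons after a shared stretch. In 3 (Pcmt1, Hnrnpa2b1 and Ppil2) they shared the stop codon, and in 3 (Cyhr1, Ak6 and Gabbr1) they shared no coding base in frame. In 12 genes a protein-coding transcript with a stop codon was read on only 1 end, and in Crebzf on neither. Protein-coding transcripts alone reached 10 reads in each library on 2 or more ends in 52 genes.

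In the 47 genes with different stops, the upstream end added a median of 13 residues coded by its own sequence (1 to 125) and the downstream end 73 (3 to 1083). The upstream end added fewer in 33 genes, more in 11 and the same number in 3. The extremes were Nisch, an imidazoline-receptor-related protein, with 6 residues upstream and 1083 downstream, and Polr1d, an RNA polymerase subunit, with 125 and 118. The upstream end added 1 residue in 9 genes, which were Apoe, Olfm1, Mkrn1, Klc1, Sept8, Stau2, Cacfd1, Wtap and Dtymk. Atp2a2 and Ppm1b, a phosphatase, went the other way, with 50 and 99 residues upstream against 4 and 12 downstream.

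**Figure D3:**
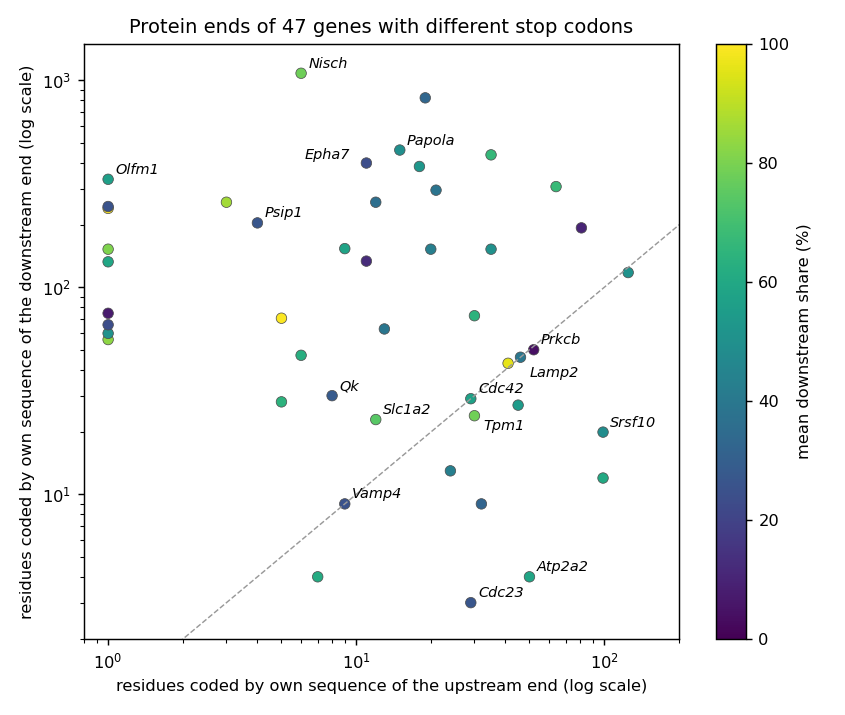
Residues coded by the own sequence of the upstream end (horizontal axis, log scale) and of the downstream end (vertical axis, log scale) for the 47 genes with different stop codons, 1 point per gene, coloured by the mean downstream share of reads. Of these, 33 lie above the dashed line of equality, 11 below and 3 on it (Cdc42, Lamp2 and Vamp4).

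The libraries gave the same leading last exon in 57 of the 66 genes. The other 9 were Stau2, Lamp2, Polr1d, Eif4e2, Srsf10, Cstf3, Cacnb1, Cxxc5 and Srebf2. A tie was counted for the upstream end, which put Cstf3, tied in replicate 1, among the 9 and Gabbr1, tied in replicate 2, among the 57. The leading share differed between them by a median of 5.6 percentage points, by under 5 points in 29 genes and by over 10 in 16. The downstream share had a Pearson r of 0.917 and a Spearman rho of 0.900 across the 66 genes, which are not replicates and share the libraries. Reads on the leading end against all others were compared between the libraries with Fisher's exact test, two-sided, in the 762 genes with 2 ends read and at least 20 reads in each library. With Benjamini-Hochberg adjustment 2 genes differed, 0.262% of those tested, and both were members, so 2 of 66 members and 0 of 696 other genes were called. At an unadjusted p under 0.05 there were 24 genes, 12 of them members. Members hold at least 10 reads on a second end in each library by their choice, which also limits how far their shares can differ. The shares called are therefore not comparable. The test counts reads as units and compares these 2 libraries, not conditions.

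Pnkd, which is mutated in a paroxysmal dyskinesia, had the largest difference. Its upstream end at chr1:74287092-74287454, which makes a short form of 142 residues, held 75 of 160 reads in replicate 1 and 18 of 110 in replicate 2. The downstream end at chr1:74351758-74353694, which makes the 385-residue form, held 82 and 92 reads. Its share was 51.2% (43.2% to 59.2%) in replicate 1 and 83.6% (75.4% to 90%) in replicate 2, a difference of 32.4 points (adjusted p = 2.74e-05, Fisher's exact test). The intervals do not overlap. The level of the gene was 158 and 154 CPM (adjusted p = 1, exact binomial test), so the total was similar while the ends differed. The transcripts of the upstream end were 740 nt long on average and those of the downstream end 2906 nt.

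Mobp also differed. Its upstream, protein-coding end at chr9:120168223-120169378 held 42 of 163 reads in replicate 1 and 12 of 162 in replicate 2. The downstream end at chr9:120179525-120181484 held 113 and 142 reads, of which 112 and 141 came from a transcript annotated as nonsense-mediated decay. The downstream share was 69.3% (61.6% to 76.3%) and 87.7% (81.6% to 92.3%), a difference of 18.3 points (adjusted p = 0.029, Fisher's exact test). The 2 intervals do not overlap. Oligodendrocyte markers were higher in replicate 2, as given above, and the part of this in the Mobp ends was not tested. In tissue RNA, fewer cells of a type and less RNA per cell cannot be told apart. With protein-coding transcripts only, this downstream end is left out and Mobp was not called.

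Olfm1, Qk and Stau2 did not pass the adjustment. The downstream share of Olfm1 was 52.6% and 59.8% (adjusted p = 0.12, Fisher's exact test), and that of Qk 19.3% and 37.6% (adjusted p = 0.35, Fisher's exact test). For Stau2 it was 60.8% and 40.0% (adjusted p = 0.71, Fisher's exact test). For these 3 genes a difference between the libraries was not shown at this depth.

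**Figure D4:**
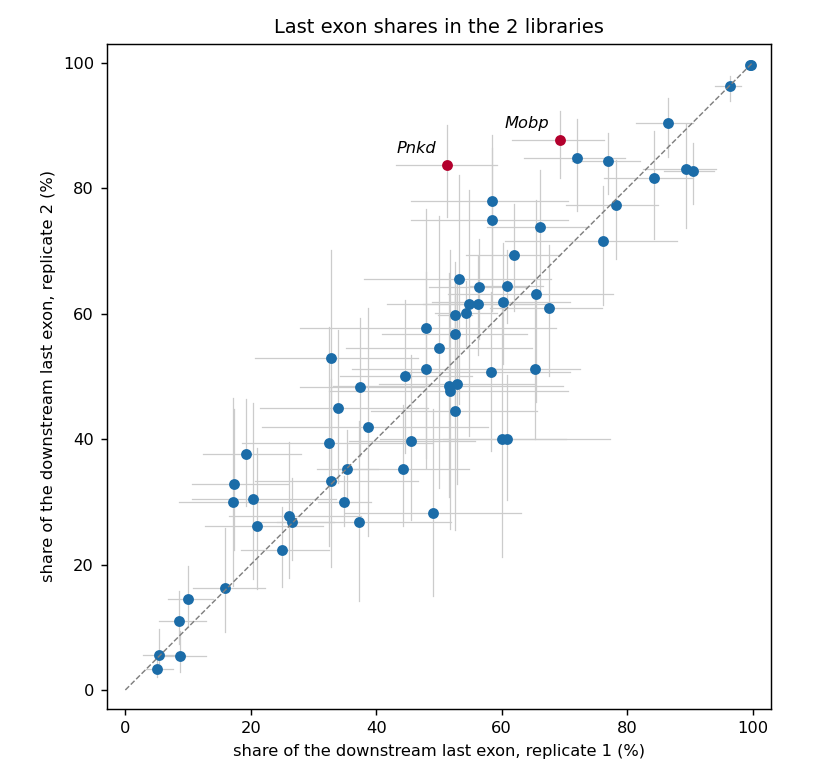
Share of the downstream of the 2 leading last exons in replicate 1 (horizontal axis, %) and replicate 2 (vertical axis, %), 1 point per gene, with 95% exact intervals of counting error as grey lines and equality as the dashed line. Pnkd and Mobp, in red, lie above the line and are the 2 genes past the threshold.

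Transcript length was set beside these differences as a description, without a test. Downstream-ending transcripts were the longer ones in 49 of 66 genes, with a median length of 2807 nt against 1849 nt for upstream-ending ones. The longer form had the higher share in replicate 2 in 43 genes and the lower share in 23, with a median change of 3.25 points. Where the lengths differed at least 2-fold (21 genes), it was higher in 14, with a median of 5.43 points. Where they differed less (45 genes), it was higher in 29, with a median of 2.74 points. Spearman's rho between the length ratio and the change in downstream share was 0.226 across genes. The part of read length in the Pnkd and Mobp differences was not tested.

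**Figure D5:**
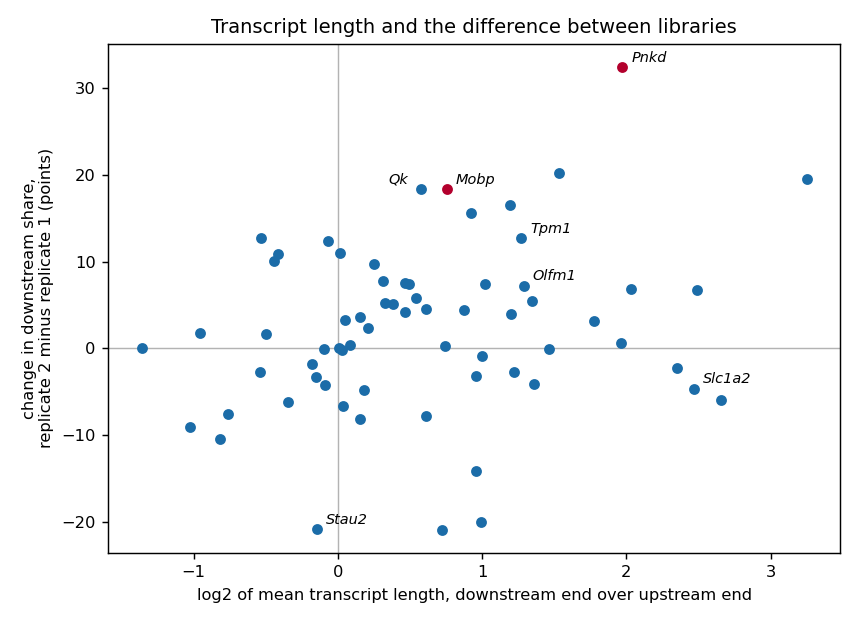
Log2 ratio of mean transcript length, downstream end over upstream end (horizontal axis), and the change in downstream share from replicate 1 to replicate 2 (vertical axis, percentage points), 1 point per gene. Points lie on both sides of 0, and Pnkd and Mobp (red) lie at 32.4 and 18.3 points.

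Reads of spliced models outside the annotation did not enter the choice of members. Leaving out incomplete matches that do not keep the 3′ end of an annotated transcript, they numbered 2842 and 2513 in these genes, and 38 members had at least 10 in each library. In 26 of the 38 these reads led on the same last exon as the annotated ones, and in 12 they did not. The leading shares differed by a median of 15.6 points. The 12 were Olfm1, Syn2, Qk, Ppil2, Gabbr1, Cdc23, Ccpg1, Sin3b, Armc8, Eif4e2, Cxxc5 and Srebf2. Among them, Olfm1 had a downstream share of 34.7% and 52.4% in these reads, Qk an upstream share of 51.5% and 43.5%, and Syn2 an upstream share of 34.2% and 45.7%. Atp2a2 had 88.6% and 87.8% downstream, above its annotated share, and Klc1 had 680 and 614 such reads with 97.6% and 96.7% on its upstream end. Annotated spliced reads made up a median of 74.5% of all reads of a member, from 15.8% in Dclk1 to 97.3% in 1500011B03Rik. It was under 30% in Dclk1, Syngr1, Nisch, Slc1a2, Klc1, Cxxc5 and Hnrnpa2b1, whose shares rest on a minor part of their reads.

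The levels of the genes were compared as well, by setting each gene's reads against the totals of the libraries (exact binomial test, two-sided). Of 11681 genes with 10 or more reads in all, 1266 differed after Benjamini-Hochberg adjustment, 10.8%. This test also counts reads as units, so it covers counting error between these 2 libraries and not the spread between animals. Among the members 20 differed, 14 higher in replicate 2 and 6 higher in replicate 1. The members have more reads than the 10 needed for this test, so that count is not comparable with the rest. Only 2 members were called for last exon use, so their absence from these 20 is no result about the members. Examples of the 20 were Prkcb (548 and 811 CPM), Slc1a2 (194 and 340 CPM), Qk (163 and 241 CPM) and Hnrnpa2b1 (746 and 575 CPM).

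Of 55 genes known for alternative last exons, 53 had 2 or more annotated ends, 12 had enough reads on them to be tested and 5 were members: Cdc42, Tpm1, Klc1, Slc1a2 and Dclk1. Of these 5, 0 differed in end use between the libraries after adjustment, beside 0.262% of all 762 genes tested. With so few calls over all genes, this is no result about the known genes. Tpm1 had an unadjusted p of 0.0264 (Fisher's exact test). Of 22 cleavage and polyadenylation factors, all tested for level, 2 differed, a share near the 10.8% of all genes. Pabpc1 (poly(A)-binding protein) was higher in replicate 2 at 142 CPM against 74.5 CPM, and Ssu72 (a phosphatase of RNA polymerase II) was higher in replicate 1 at 146 CPM against 99.0 CPM. Of 29 tested factors that act on the choice of the last exon, 4 were higher in replicate 2, Celf4, Rbfox3, Qk and Khdrbs1, and Khdrbs3 was higher in replicate 1, which is 5 of 29 beside 10.8% of all genes. Their log2 ratios, replicate 2 over replicate 1, were 0.34, 0.69, 0.56, 0.67 and -0.30. The median log2 ratio was 0.26 in the first of these lists and 0.14 in the second, against 0.11 over all genes tested. These lists hold Papola, Cstf3, Qk and Khdrbs3 as members, and the part of factor levels in the shares was not tested.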

How the data were processed

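The authors deposited 1 table of unscaled read counts for each library, with a row per transcript model, per the file headers. Reads were assigned to GENCODE M21 transcripts on mm10 and to added models that name TALON as source, per the file headers. For the aligner, read filters and strand handling: not given in the sources used here. Known exons matched GENCODE M21, from which coding parts and sequences came; sequences are GENCODE's, and exons of the deposited annotation were used as such.

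Annotated last exons that overlapped by at least 1 base were 1 group. A share is the reads of a group over all reads of the gene's annotated spliced transcripts, with 95% exact intervals. The leading end has the highest mean share. Tests were Fisher's exact test and an exact binomial test adjusted by Benjamini-Hochberg, with adjusted p up to 0.05 called. Log2 ratios used CPM plus 1. Both tests were run on simulated counts that held counting error only, with 200 changed genes each. Fisher's exact test recovered 86% of changes of 30 points and called 1 unchanged gene. The exact binomial test recovered 30% of 2-fold changes and called 1 unchanged gene, so it missed most changes of that size. Python 3.11.15, numpy 2.4.6, scipy 1.17.1, pandas 2.3.3, biopython 1.88 and matplotlib 3.10.9 were used.

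The members, lists and tests were chosen with earlier results of these data known. Named genes were list members, the 15 with most reads, the 10 most even with at least 50 reads in each library, those past the threshold and those at the read minimum. All other genes, such as Psip1, Epha7 and Vamp4, were named after their values were seen. Alternatives were other minimums, transcript sets and denominators, each library left out, and 2 added after seeing the data. The 1-exon and intergenic models were left out.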

Additional observations from a re-analysis of the deposited data

How the results depend on the processing

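The number of genes was 66, and it was 131 with a minimum of 5 reads, 25 with 20 reads and 23 without last exons that overlap an internal exon. It was 73 to 97 when 1 library was left out. With protein-coding transcripts only (52), without transcripts lacking a known 3′ end (65) and with groups formed from read transcripts only (66, added after seeing the data), it stayed within 1.5 times. The 52 genes with protein-coding transcripts on 2 or more ends became 98 and 20 with minimums of 5 and 20 reads, and 57 to 69 with 1 library left out. The median leading share of 65.1% became 72.5% with protein-coding transcripts only and 66.7% with unannotated models added, and 64.8% to 66.1% from 1 library. The median share of the most downstream end, 50.6%, became 51.5% over the accepted ends only, 53.2% with protein-coding transcripts only, 54.2% with unannotated models added, and 51.0% to 52.1% from 1 library. The genes with the same leading end in both libraries numbered 57 to 60. The count of 2 genes that differed in end use was 2 with gene minimums of 10 and 50 reads and with a chi-square test, and 3 with unannotated models, where Homer3 joined. With protein-coding transcripts only it was 1, since Mobp's leading end is left out. Mobp's upstream end then became the leading one and its share changed by -24 points (adjusted p = 1, Fisher's exact test), which is a change of another end. Pnkd was called in all 5 alternatives. The level test called 1266 genes, or 1342 with the other two-sided p (added after seeing the data). Among 37 named genes the leading share moved by under 1 SD in 23 when unannotated models were added, by a median of 1.73 points and at most 33.8 points (Cxxc5, from 50% to 16.2%). It moved by over 1.5 times in Cxxc5, Dclk1 (52.8% to 84.3%) and Srebf2 (50.3% to 29.8%). Leaving out a library leaves no comparison of libraries. No paired analysis was possible because there was only 1 group. Shares of genes with few reads are imprecise, such as those of Dclk1 with 25 and 26 reads.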
